A study of Mus musculus with 10 samples.

Results

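The clonotypes described here are T cell receptor β chains that carry a cysteine in the interior of their CDR3 (complementarity-determining region 3, the loop made where the V, D and J segments are joined). Members were the clonotypes of the 9 Tcrb libraries that did not use TRBV1, whose CDR3 began with cysteine and ended with phenylalanine, and that held a further cysteine after residue 4 and before the last 4 residues. A total of 98 of 26492 complete non-TRBV1 clonotypes met this rule, out of 29481 Tcrb clonotypes of all kinds. Of the 98 members, 56 came from the 7 libraries of Tcrd-/- skin, 42 from Tcrd-/- lymph node and 0 from WT dermis. No member held 2 interior cysteines. The rule used the sequence alone and no read count.

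Every β-chain CDR3 opens with the conserved cysteine that ends the V segment framework, whereas a second cysteine within the loop is uncommon in conventional αβ T cells. Interior cysteines of this kind are known from thymocytes with strong reactivity to self, many of which are deleted, and from αβ T cells resident in the gut epithelium, which include cells that survive such signals. They lie near the tip of the loop, which faces the peptide bound to the MHC molecule. Among the germline segments with a reference, TRBV1 was the only V segment with a cysteine after the first, and none of the 2 D and 11 J segments encoded one, reading J in the frame of the CDR3 and D in all frames. TRBV1 was left out for this reason, and the interior cysteines of the members are not encoded by these germline sequences as they stand.

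The study sequenced Tcrb transcripts, amplified by 5′ RACE and PCR, from T cells sorted from ear skin and peripheral lymph node. WT animals were C57BL/6-N/Crl and contributed 1 library of dermal TCRβ+ cells. Tcrd-/- animals (B6.129P2-Tcrdtm1Mom/J) lack γδ T cells, so that αβ T cells occupy the skin. From them came 3 epidermal libraries (A, B and C) of cells with high CD3 and TCRβ, 2 libraries of all dermal TCRβ+ cells (A and B), 1 dermal CD103+ library, 1 dermal CD103hi library and 1 lymph node library; CD103 is an integrin that binds E-cadherin of epithelial cells. Each library was 1 pool of cells from 5 to 18 animals, so no value per animal exists, and spread between libraries is spread between pools. Depth ranged from 31823 reads in the CD103hi library to 189162 in WT dermis, and the number of complete non-TRBV1 clonotypes from 65 in dermal library B to 24120 in lymph node. The tags in the library names (SAMIR, IS and DNA) put the libraries into 3 sets whose meaning is not stated. The sets cross the tissues, with lymph node, dermal A and epidermal A in the first, both CD103 sorts and epidermal B in the next, and WT dermis, dermal B and epidermal C in the last.

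The 15 skin members with at least 100 reads are printed first, because they show where the cysteine codon sits between the V and J ends. Each sequence is the nucleotide CDR3 from 5′ to 3′, with the interior cysteine codon in capitals.
Epidermal A, TRBV12-1 and TRBJ2-7, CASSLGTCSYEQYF, 200 reads: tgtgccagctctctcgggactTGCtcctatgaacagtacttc
Epidermal A, TRBV15 and TRBJ2-7, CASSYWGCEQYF, 156 reads: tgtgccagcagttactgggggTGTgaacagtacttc
Epidermal B, TRBV13-3 and TRBJ2-4, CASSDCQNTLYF, 662 reads: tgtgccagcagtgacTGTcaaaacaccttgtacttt
Epidermal B, TRBV13-2 and TRBJ2-1, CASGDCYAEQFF, 353 reads: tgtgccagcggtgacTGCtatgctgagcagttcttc
Epidermal B, TRBV13-3 and TRBJ2-1, 348 reads: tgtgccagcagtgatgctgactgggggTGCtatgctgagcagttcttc
Epidermal B, TRBV17 and TRBJ2-5, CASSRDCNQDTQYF, 128 reads: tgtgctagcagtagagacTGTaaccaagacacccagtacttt
Epidermal B, TRBV19 and TRBJ2-3, 108 reads: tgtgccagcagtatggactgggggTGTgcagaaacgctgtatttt
Epidermal C, TRBV17 and TRBJ2-3, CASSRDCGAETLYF, 1452 reads: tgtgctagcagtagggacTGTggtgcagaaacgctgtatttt
Dermal A, TRBV19 and TRBJ2-1, 1232 reads: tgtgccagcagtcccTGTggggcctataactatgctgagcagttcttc
Dermal B, TRBV13-2 and TRBJ2-7, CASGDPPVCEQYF, 1440 reads: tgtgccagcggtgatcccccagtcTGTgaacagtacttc
Dermal B, TRBV13-1 and TRBJ2-4, 292 reads: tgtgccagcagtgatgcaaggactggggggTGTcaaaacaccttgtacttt
Dermal CD103+, TRBV19 and TRBJ1-5, 122 reads: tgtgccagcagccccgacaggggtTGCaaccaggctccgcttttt
Dermal CD103hi, TRBV17 and TRBJ2-1, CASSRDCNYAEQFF, 469 reads: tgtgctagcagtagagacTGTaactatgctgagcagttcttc
Dermal CD103hi, TRBV31 and TRBJ2-7, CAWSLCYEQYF, 140 reads: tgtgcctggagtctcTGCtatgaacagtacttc
Dermal CD103hi, TRBV17 and TRBJ2-3, 114 reads: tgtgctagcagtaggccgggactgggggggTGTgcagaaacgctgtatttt
In 5 of these 15 clonotypes the letters before the codon are GAC, which encodes aspartate, and in each of the 5 the cysteine is residue 6 or 7.

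The lymph node members were small, and the largest are printed for comparison. In these the cysteine lies at residue 8, 5 and 10.
Lymph node, TRBV12-2 and TRBJ2-1, 5 reads: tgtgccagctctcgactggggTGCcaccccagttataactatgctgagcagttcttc
Lymph node, TRBV26 and TRBJ2-2, 4 reads: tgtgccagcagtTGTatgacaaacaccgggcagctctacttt
Lymph node, TRBV12-1 and TRBJ1-5, 4 reads: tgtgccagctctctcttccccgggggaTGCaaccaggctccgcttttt

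The germline ends against which the codons can be read are given with their places on mouse chromosome 6 (GRCm38, GENCODE release M21, coordinates of the gene model, plus strand). The D and J sequences are printed as far as the CDR3 can hold them, and the V sequences from the conserved cysteine codon to the end of the segment.
TRBV13-3, 41130147 to 41130585: tgtgccagcagtgatg
TRBV17, 41163062 to 41163556: tgtgctagcagtagaga
TRBD2, 41542163 to 41542176: gggactgggggggc
TRBJ2-1, 41542754 to 41542803: taactatgctgagcagttcttc
TRBJ2-4, 41543362 to 41543410: agtcaaaacaccttgtacttt
TRBJ2-7, 41543810 to 41543856: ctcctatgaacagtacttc
TRBJ2-4 holds the letters GT at its bases 2 and 3, so that a T in front of them completes the codon TGT, as in the leading clonotype of epidermal B.

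The share of clonotypes with an interior cysteine was higher in each of the 7 Tcrd-/- skin libraries than in lymph node. Lymph node had 42 members of 24120 clonotypes, a share of 0.174% (95% Wilson interval 0.129% to 0.235%). Dermal library A had 5 of 210 clonotypes, 2.38% (1.02% to 5.45%), and dermal library B had 5 of 65, 7.69% (3.33% to 16.8%). The lower bound of both dermal libraries lay above the upper bound of lymph node. Epidermal library A had 6 of 295 clonotypes, 2.03% (0.935% to 4.37%). Epidermal library B had 17 of 364, 4.67% (2.94% to 7.35%), the highest number of members in any skin library. Epidermal library C had 4 of 69, 5.80% (2.28% to 14.0%). The 3 epidermal intervals overlapped one another and none reached the lymph node interval. The dermal CD103+ library had 5 of 405 clonotypes, 1.23% (0.528% to 2.86%), and the dermal CD103hi library had 14 of 365, 3.84% (2.30% to 6.33%). The CD103hi share was the higher of the 2 sorts, but their intervals overlapped. The median skin share was 22 times that of lymph node, with a range of 7.09 (CD103+) to 44.2 times (dermal B). The labels name no molecular identifiers on the amplified reads, so these intervals cover counting error only, and lymph node was a single library, so its spread between pools is unknown.

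WT dermis had 0 members among 599 clonotypes, which allows a share of up to 0.501% taking 3 counts as the limit, and up to 0.637% by the 95% Wilson interval. At the lymph node share, 1.04 members would have been found there, so WT dermis and lymph node could not be told apart at this number of clonotypes. Both limits lay below the lower bounds of 6 of the 7 Tcrd-/- skin libraries. The bound of CD103+ (0.528%) fell between them, so CD103+ and WT dermis were not separated by both. Genotype was compared in dermis over 1 WT pool and 2 bulk Tcrd-/- pools, which allows no test.

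**Figure D1:**
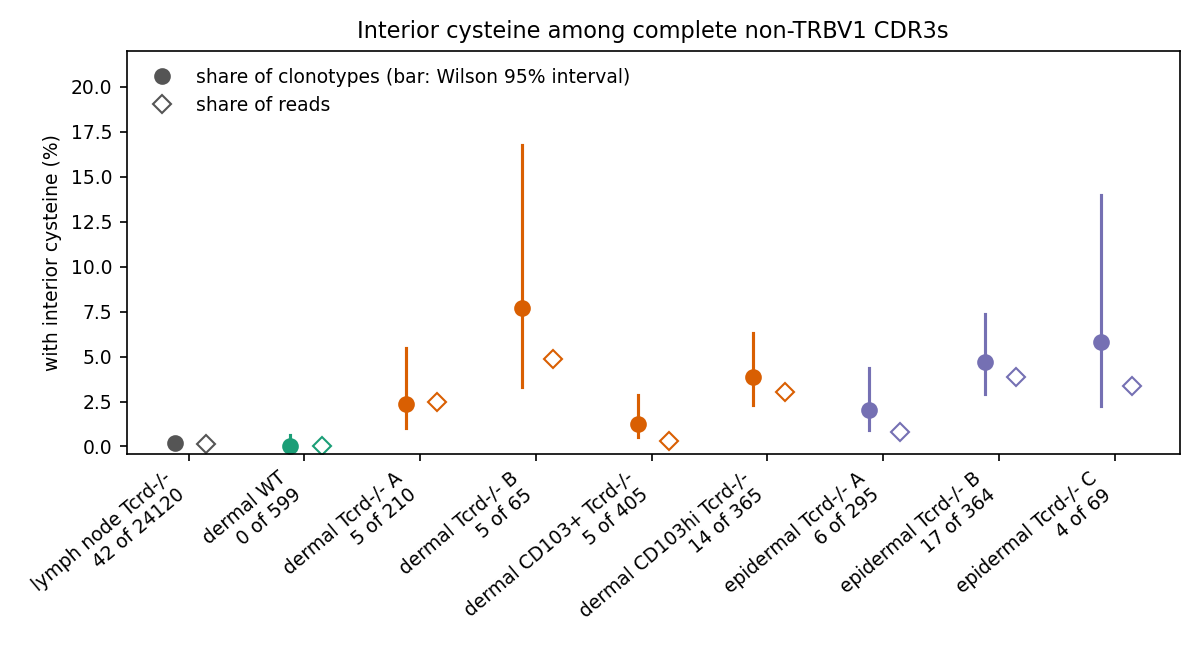
Share of complete non-TRBV1 clonotypes with an interior cysteine (filled circles, with the 95% Wilson interval as a bar) and share of their reads (open diamonds), in percent, for each of the 9 libraries, with members and clonotypes counted on the x axis. The 7 Tcrd-/- skin libraries sit between 1.23% and 7.69% of clonotypes, while lymph node is at 0.174% and WT dermis at 0.

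Some members may be copies of others with read errors, or traces from other libraries, so 2 properties of each were recorded. Within 2 mismatches of a clonotype of the same library with at least 10 times its reads lay 21 of the 56 skin members and 0 of the 42 lymph node members. In 15 of the 21 the larger clonotype was itself a member, and in 6 (3 in dermal A, 2 in epidermal A, 1 in epidermal B) it had no interior cysteine. Among the non-members such a neighbour was found for between 6.15% and 38.3% in these skin libraries and for 0.191% in lymph node, where few clonotypes had the reads that a larger neighbour needs. A further 4 skin members (3 in CD103+, 1 in CD103hi) had under 1% of the share that the same clonotype had in another library of their set. Leaving out both kinds, 31 skin members remained, and the shares were 1.22% in dermal A, 4.35% in dermal B, 0.862% in CD103+, 3.66% in CD103hi, 1.23% in epidermal A, 5.02% in epidermal B and 4.55% in epidermal C, against 0.175% in lymph node. All 7 skin shares were still above that of lymph node, although dermal A, dermal B, CD103+ and epidermal C then rested on 2 members each. The lowest Wilson bound among them, 0.237% in CD103+, lay next to the upper bound of lymph node, 0.236%. Of the 2 CD103+ members, 1 was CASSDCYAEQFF with 1 read. The same clonotype had 77 reads in epidermal B of the same set, and its share in CD103+ was above the 1% limit. WT dermis, with 0 of 466, had an upper bound of 0.818%, above the lower bounds of CD103+, dermal A (0.335%) and epidermal A (0.421%). The part of such copies in the result was otherwise not tested.

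Lymph node clonotypes were mostly seen once: 26 of its 42 members and 51.7% of its other clonotypes had 1 read. Only 47 lymph node clonotypes reached 10 reads, and none of them was a member. With clonotypes of at least 2 reads, the lymph node share was 0.137% and the skin shares ranged from 0.901% (CD103+) to 9.52% (dermal B). Applying the lymph node share of each J segment to the J usage of the skin libraries gave between 0.10 and 0.696 members per library, against the 4 to 17 observed. With the share of each V segment the numbers were 0.0953 to 0.919, and with the share of each CDR3 length 0.0983 to 1.01. These numbers rest on the 42 members of a single lymph node pool, among them 1 with TRBJ2-4 and 1 with TRBV17.

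Among the 20 amino acids in the same window, cysteine had the highest ratio of skin share to lymph node share. It was the rarest residue of the interior in lymph node, present in 0.174% of clonotypes, followed by methionine at 1.21%. The ratio of the median skin share to the lymph node share was 22 for cysteine and 1.43, 1.39 and 1.33 for methionine, histidine and tryptophan, the next in order. All 7 skin libraries were above lymph node for cysteine, and 6 of 7 for each of these 3. Lysine had the lowest ratio, 0.287, and was below lymph node in all 7. The ratio has a ceiling that falls as the lymph node share rises. Glycine, at 77.0% in lymph node, could not have come near the ratio of cysteine. Among residues rare there, lysine (3.83%) and histidine (4.16%) were the next after methionine. These ratios are descriptions over 7 pools against a single lymph node pool.

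**Figure D2:**
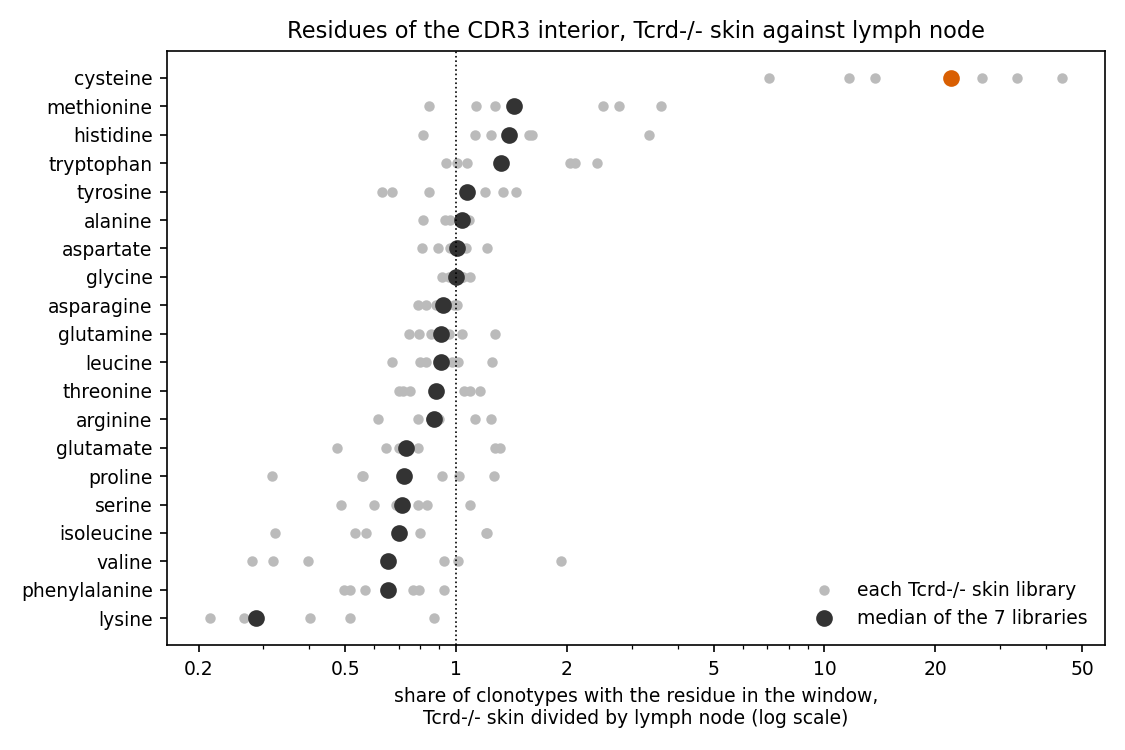
Share of clonotypes with each amino acid in the CDR3 interior in Tcrd-/- skin divided by that in lymph node, on a log scale; grey points are the 7 skin libraries (a library at 0 is not drawn) and large points their median. Cysteine, in orange, has a median ratio of 22, whereas the other 19 lie between 0.287 and 1.43.

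The cysteine sat close to the middle of the CDR3 in skin and further towards the J segment in lymph node. Positions overlapped between the groups, and clonotypes of 1 pool are not replicates, so the values on position and segments are given with no test. It was within 1 residue of the centre in 40 of the 56 skin members (71.4%) and in 14 of the 42 lymph node members (33.3%). Without near and trace clonotypes the skin value was 25 of 31 (80.6%). The median distance from the centre was 0 residues in skin and 1 residue towards J in lymph node. Residues 6 and 7 held the cysteine in 32 skin members (57.1%) and 11 lymph node members (26.2%), and residue 10 or later in 12 and 14. Skin libraries differed among themselves: the cysteine was within 1 residue of the centre in 13 of 14 members of CD103hi, 13 of 17 of epidermal B, 5 of 6 of epidermal A, 4 of 5 of CD103+ and 4 of 4 of epidermal C. By contrast only 1 of 5 members of dermal A and 0 of 5 of dermal B had it there. All 5 members of dermal B had it 2 residues from the centre towards J, and 3 of them were within 2 mismatches of a larger member. At the borders of the rule, 8 skin and 15 lymph node members held the cysteine at the first or the last allowed residue. Just outside these borders, 12 lymph node clonotypes, 1 WT clonotype and 0 Tcrd-/- skin clonotypes had one.

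**Figure D3:**
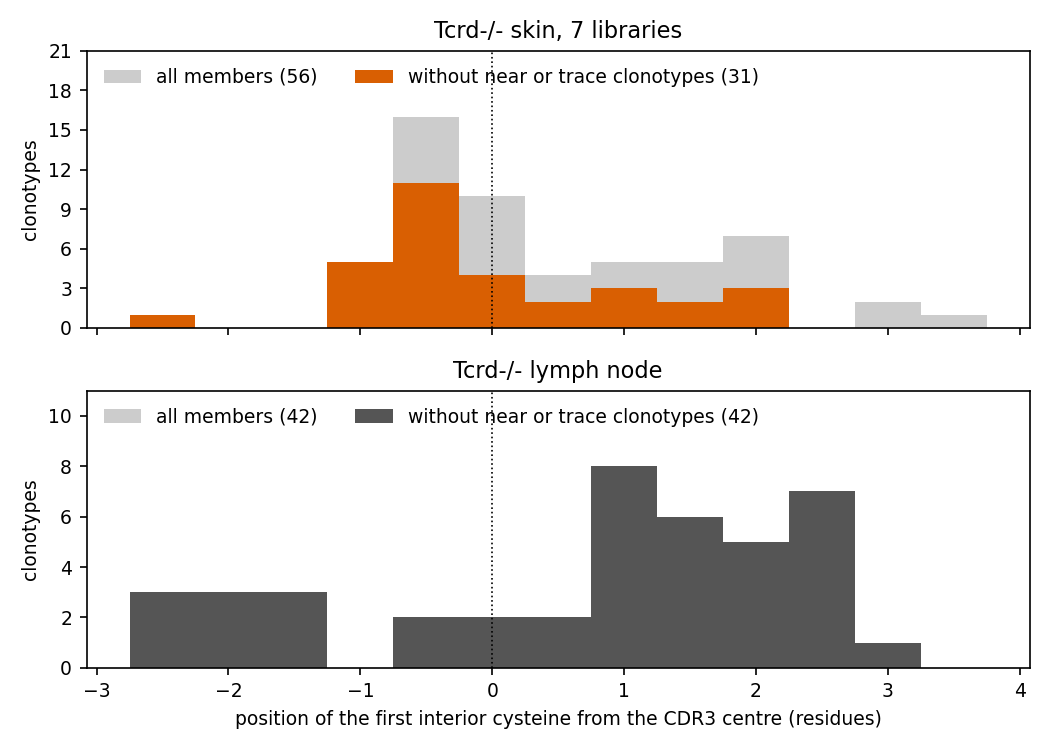
Number of members by the distance of the interior cysteine from the CDR3 centre in residues (negative towards V, positive towards J), for the 56 skin members (upper) and the 42 lymph node members (lower). Coloured bars leave out clonotypes near a larger one or at trace share, and grey shows all; skin members gather within 1 residue of the centre (40 of 56), lymph node members to its right (29 of 42).

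Aspartate preceded the cysteine in 17 skin members (30.4%) and 5 lymph node members (11.9%), and in 11 of the 31 skin members without near and trace clonotypes. Glycine, which both D segments encode, preceded it in 16 members of each group, 28.6% in skin and 38.1% in lymph node. The aspartate codon was GAC in 16 of the 17 skin members, from 4 libraries, and in 3 of the 5 in lymph node. The letters GACTG, which TRBD2 holds, were searched anywhere in the CDR3 on the coding strand after the members had been seen. They were present in 31 of 56 skin members (55.4%) and in 19.7% of the other 1717 skin clonotypes. In lymph node they were in 6 of 42 members (14.3%) and 14.7% of the other clonotypes. They ran into the cysteine codon in 16 of the 31 skin members and 3 of the 6 lymph node members, and lay elsewhere in the other 15 and 3. Where they run into the codon, the rule itself supplies the letters TG. Without near and trace clonotypes, 15 of 31 skin members (48.4%) held them.

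The codon was TGT in 39 and TGC in 17 of the skin members, and TGT in 25 and TGC in 17 of the lymph node members. When germline V, J and then D ends were matched to each CDR3, the last base of the codon matched the J segment in 35 skin and 29 lymph node members, and at least 1 base matched a D segment in 11 and 7. No base was assigned to V in any member. All 3 bases were unmatched in 14 skin and 7 lymph node members, and matched across a D to J junction in 4 and 1. Matching takes the V and J ends before D, so a codon base that D or an added nucleotide could also supply is counted as J. A D match needed at least 4 of the bases left between them, so shorter stretches of D are counted as unmatched. In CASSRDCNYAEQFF of CD103hi, for example, V takes the GA of GACTG and the TG of the codon is left unmatched. The D counts may therefore be too low. Counted from the CDR3 end, the codon lay within the length of the germline J in 41 skin and 31 lymph node members. It differed by 1 base from the J letters there in 31 of these skin members, 15 of them near a larger clonotype. The same was seen in 19 of these lymph node members. In 2 of these 31 skin members and 5 of these 19 lymph node members the 3 bases before the codon matched J too. Both of these skin members were in dermal A, had 2 reads and 1 read, and lay near a larger clonotype without an interior cysteine. The 5 lymph node members had no larger neighbour, and whether the base change arose in the cell or in sequencing was not tested.

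The J segments of the skin members came almost wholly from the TRBJ2 cluster. TRBJ2 was used by 55 of 56 skin members (98.2%), whereas the other clonotypes of the same libraries used it at 66.7% to 80.1%. In lymph node, 30 of 42 members (71.4%) and 70.2% of the other clonotypes used TRBJ2. The single TRBJ1 member in skin was the TRBV19 and TRBJ1-5 clonotype of CD103+ printed above, with 122 reads. TRBJ2-4 was the most frequent, with 17 skin members (30.4%) against 9.61% of the other skin clonotypes. Those 17 lay in 4 libraries: 8 in CD103hi, 4 in dermal B, 4 in epidermal B and 1 in CD103+. Leaving out near and trace clonotypes left 9 of 31 (29.0%), in 3 libraries. In lymph node TRBJ2-4 had the lowest member share of the J segments, with 1 member among 2289 clonotypes (0.0437%). TRBJ2-1 and TRBJ2-7 had 14 skin members each (25.0%), beside 14.9% and 20.1% of the other skin clonotypes, and 9 and 11 members in lymph node. TRBJ2-3 had 7 skin and 4 lymph node members. TRBJ2-5, used by 13.9% of the other skin clonotypes, had 3 skin members (5.36%) and 4 in lymph node. Among J segments with at least 200 lymph node clonotypes, the highest member share was that of TRBJ1-4, with 5 members (11.9%) against 5.71% of the other clonotypes; it had 0 members in skin.

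**Figure D4:**
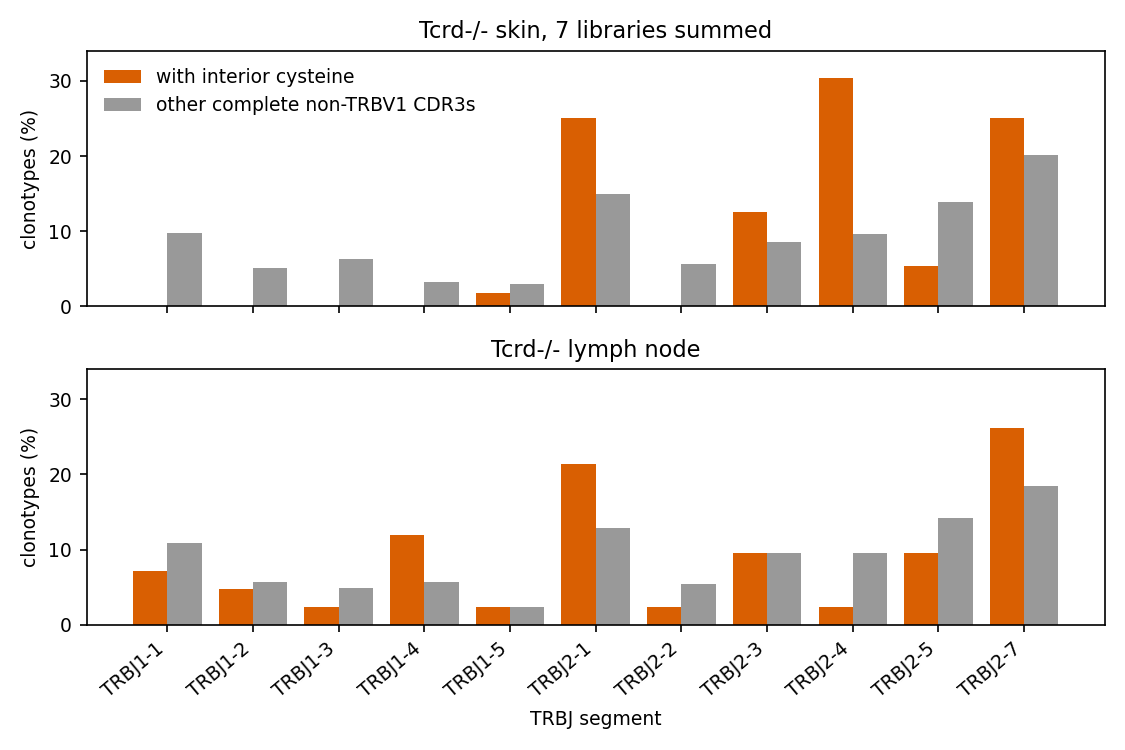
Use of each TRBJ segment, in percent of clonotypes, by members (orange) and by the other complete non-TRBV1 clonotypes (grey), for the 7 Tcrd-/- skin libraries summed (upper) and lymph node (lower). In skin, TRBJ2-4 takes 30.4% of members and 9.61% of others, and the TRBJ1 segments together hold 1 member.

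V usage was broader. TRBV13-3 had 10 skin members, TRBV13-2 had 9 and TRBV13-1 had 4, together 23 of 56, and the family had 13 of 42 in lymph node. TRBV13-2 and TRBV13-3 made up 16.1% and 17.9% of skin members and 14.5% and 13.6% of the other skin clonotypes, so their use was close to that of their libraries. TRBV17 was used by 8 skin members (14.3%) and by 3.73% of the other skin clonotypes. Of the 72 TRBV17 clonotypes in skin 11.1% were members, compared with 1 of 392 (0.255%) in lymph node. The TRBV17 members lay in CD103hi (5), CD103+ (1), epidermal B (1) and epidermal C (1), and 5 of the 8 remained without near and trace clonotypes. The TRBV17 germline end reads CASSR followed by GA, and a TRBV17 clonotype beginning CASSRDC was found in each of these 4 libraries, in CD103+ as 1 read. Among them were the leading clonotypes of epidermal C and CD103hi, joined to TRBJ2-3 and TRBJ2-1. TRBV19 had 6 skin members (10.7%) against 5.42% of the others, and 3 in lymph node. TRBV23, TRBV29 and TRBV2, with 227, 1318 and 352 clonotypes in lymph node, had 0 members there. Among V segments with at least 200 lymph node clonotypes, the highest member share was that of TRBV15, with 3 of 934 clonotypes (0.321%).

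The share of members with a deposited D segment differed between the skin libraries. It was 5 of 5 in dermal A and 5 of 5 in dermal B, beside 78.0% and 75% of their other clonotypes. In each of these libraries 3 of the 5 members lay near a larger clonotype, and the remaining 2 had a listed D. In the other 5 skin libraries the share with a listed D was lower in members than in others. It ran from 0 of 4 in epidermal C (78.5% of others) to 2 of 6 in epidermal A (67.5%). Over all skin libraries no D was listed for 36 of 56 skin members (64.3%) and 32.6% of the other skin clonotypes, while TRBD2 was listed for 16 and TRBD1 for 4. Without near and trace clonotypes no D was listed for 22 of 31 skin members. Lymph node members had no D in 11, TRBD1 in 17 and TRBD2 in 14. Of these 14, 3 were listed with a TRBJ1 segment; TRBD2 lies downstream of the TRBJ1 cluster, so these D assignments are doubtful.

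Inserted nucleotides were counted in 2 ways, and the comparison of members with others depended on which was used. By the deposited segment borders, in CD103hi members carried 1.43 ± 1.83 (SD over 14 clonotypes) and other clonotypes 1.56, and in epidermal B 1.88 ± 2.39 (17 clonotypes) and 1.70. Members had more inserted bases than the others in epidermal A (3.17 and 2.71), epidermal C (5.25 and 1.80) and CD103+ (3.20 and 2.23), and fewer in dermal A (3.0 and 4.08) and dermal B (1.60 and 2.67), each over 4 to 6 members. These means include near and trace clonotypes, among them 1 with 10 inserted bases and 1 read in epidermal C. Without them the members had 3, 2 and 3 inserted bases in epidermal A, 5 and 3 in epidermal C and 7 and 0 in CD103+. In dermal A they had 6 and 2, and in dermal B 0 and 2. Lymph node members had 4.38 ± 2.76 (42 clonotypes) and the other lymph node clonotypes 2.90. No inserted base was found in 16 of 56 skin members (28.6%), of which 7 were in epidermal B, 6 in CD103hi, 2 in CD103+ and 1 in dermal B. Members without insertions were 41.2% in epidermal B and 42.9% in CD103hi, beside 47.0% and 45.6% of their other clonotypes. In lymph node 4 members (9.52%) and 17.5% of the others lacked insertions. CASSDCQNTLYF, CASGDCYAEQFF, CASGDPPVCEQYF and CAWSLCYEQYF were among the members with 0 inserted bases by this count, although for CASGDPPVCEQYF the reference matched no segment at 11 bases. The deposited borders can count a base at a J end that is not in the germline sequence as J. Matching to the reference gave a median number of bases of no segment that was higher in members than in others in dermal A (10 and 4) and dermal B (11 and 4), the reverse of the deposited count. It was also higher in epidermal A (3.5 and 2), epidermal B (4 and 3), epidermal C (7.5 and 2) and lymph node (6 and 4), and equal in CD103hi (3) and CD103+ (4). These medians include clonotypes near a larger one, and matching from either end stops at the first mismatch. Without near and trace clonotypes the median of the pooled skin members was 3. The reference gave fewer such bases in the pooled skin members (median 4) than in lymph node members, but more in dermal A, dermal B and epidermal C. Of the members of these 3 libraries, 3, 3 and 2 lay near a larger clonotype. The remaining 2 of each had 9 and 2 such bases in dermal A, 11 and 4 in dermal B, and 2 and 0 in epidermal C. Among members without a larger neighbour, the 3 in epidermal A had 2, 2 and 4 such bases. The 11 in epidermal B had 0, 1, 2, 3, 3, 3, 4, 4, 4, 5 and 5.

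The median CDR3 length was 13 residues in skin members and 14 in lymph node members. In CD103hi the mean was 12.7 ± 1.68 in members and 13.3 in others, in epidermal B 13.6 ± 1.62 and 13.1, and in lymph node 14.2 ± 1.51 and 13.7. The longest means were those of dermal A and dermal B members, 15 ± 2.35 and 16.2 ± 1.79 (5 members each), against 14.1 and 13.8 in the others. In each of these libraries 3 of the 5 members lay near a larger clonotype, so the means and SDs count copies. The remaining 2 members had 16 and 11 residues in dermal A, and 13 and 17 in dermal B. Means were 12.8 and 13.2 in epidermal A, 13.2 and 13.3 in epidermal C and 13.8 and 13.5 in CD103+.

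Reads of the members were concentrated in few clones. Members took 2.50% of complete non-TRBV1 reads in dermal A, 4.87% in dermal B, 0.326% in CD103+, 3.04% in CD103hi, 0.832% in epidermal A, 3.84% in epidermal B and 3.37% in epidermal C. In lymph node they took 0.146% and in WT dermis 0. All 7 skin values were above lymph node, CD103+ being the closest. A single clone made up 99.6% of the member reads in dermal A, 98.2% in epidermal C, 96.1% in CD103+ and 82.3% in dermal B, so the read share of these libraries describes 1 clone each. Without its largest member, the read share was 0.0101% in dermal A, 0.0129% in CD103+ and 0.0615% in epidermal C, below the 0.135% of lymph node. It was 0.392% in epidermal A, 0.864% in dermal B, 1.26% in CD103hi and 2.45% in epidermal B, where the largest, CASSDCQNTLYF, made up 36.2% of member reads. Of the 56 skin members 26 had at least 10 reads and 15 at least 100. The highest-ranking were 10th, 10th and 11th by reads in their libraries, namely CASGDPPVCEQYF of dermal B, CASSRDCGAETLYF of epidermal C and the TRBV19 clone of dermal A. The best rank was 14 in CD103hi, 22 in epidermal B, 55 in epidermal A and 93 in CD103+. In lymph node it was 823.

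Members are ranked here by reads within their library. The member ranked 3 in epidermal B was a TRBV13-3 and TRBJ2-1 clonotype of 16 residues with 348 reads, and that in CD103hi a TRBV17 and TRBJ2-3 clonotype of 17 residues with 114 reads. Epidermal A had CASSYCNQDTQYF (TRBV4, TRBJ2-5) with 10 reads. In dermal B the members ranked 2 and 3 had 292 and 15 reads, both TRBV13-1 and TRBJ2-4 and 1 mismatch apart. In epidermal C those ranked 2 and 3 encoded the same CDR3, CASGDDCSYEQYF, with 25 reads and 1 read. The members ranked 2 and 3 had 2 reads and 1 read in dermal A, and also in CD103+.

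Members were not larger or smaller than the other clonotypes of their library in a uniform way. The median log2 reads of members minus that of others was 1.46 in epidermal B and 1.0 in epidermal A. It was -2.0 in dermal A, -1.20 in dermal B, -1.0 in CD103+, -0.58 in CD103hi and 0 in lymph node. Clonotypes near a larger one are counted here, and by definition the larger one has at least 10 times their reads. They were 3 of the 5 members in each bulk dermal library. For dermal B the 2 members left had 1440 and 292 reads, both above the median of 35.5 of its others. For dermal A the 2 left had 1232 reads and 1 read, on either side of a median of 4. Over these 7 libraries with at least 5 members, the mean difference was -0.33 ± 1.23 (SD, n = 7), with members larger in 2, smaller in 4 and equal in 1. An exact two-sided sign-flip permutation test over libraries gave p = 0.50 (Benjamini-Hochberg adjusted 0.80 over 3 tests), where 0.0156 was the smallest value possible.

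**Figure D5:**
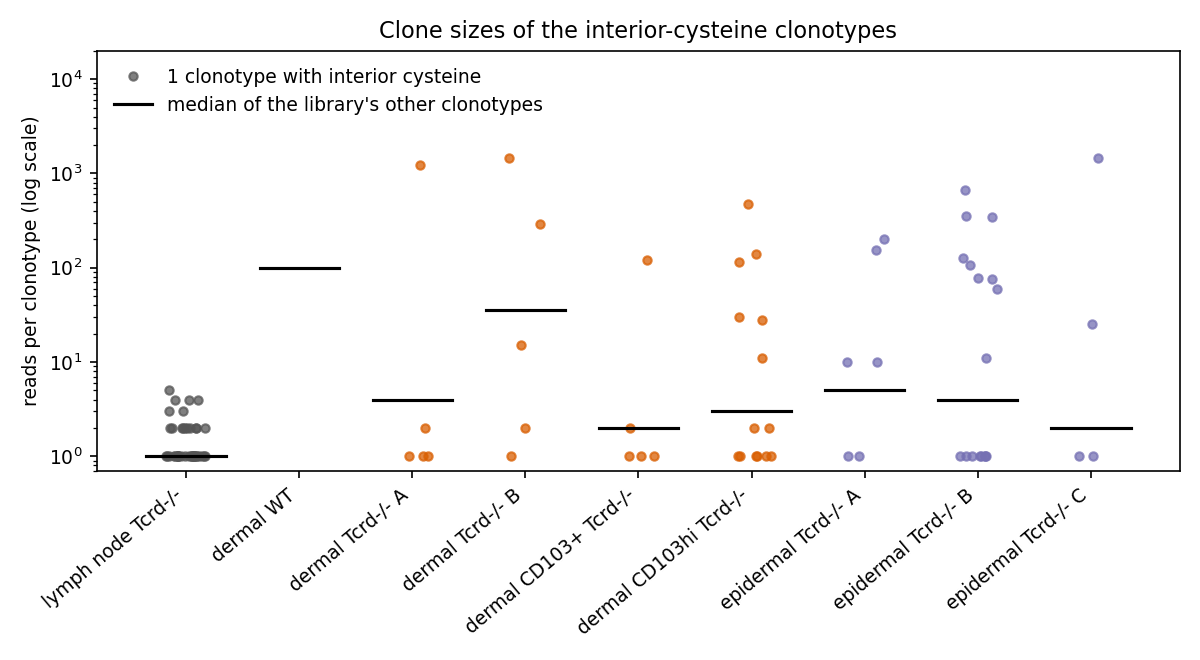
Reads per member (points, log scale) in each library, with the median of the library's other complete non-TRBV1 clonotypes as a black line. Points are spread sideways for visibility; the largest skin members reach 1452 reads, the largest lymph node member 5, and WT dermis has no member.

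Epidermis and bulk dermis of Tcrd-/- mice, the only replicated groups, could not be told apart in either share. The clonotype share averaged 4.17% ± 1.93 over the epidermal libraries (SD, n = 3) and 5.04% ± 3.76 over the dermal libraries (SD, n = 2), a difference of -0.87 percentage points by an exact two-sided permutation test with p = 0.80 (adjusted 0.80). The read share was 2.68% ± 1.62 (n = 3) and 3.69% ± 1.68 (n = 2), a difference of -1.003 percentage points with p = 0.60 by the same exact test (adjusted 0.80). With 3 libraries against 2 the test cannot give a p under 0.2. Within library sets, epidermal A minus dermal A was -0.35 and epidermal C minus dermal B was -1.90 percentage points of clonotypes. For reads these differences were -1.66 and -1.50. The sign of the clonotype difference turned when dermal B or epidermal A was left out, to 1.79 and 0.197 percentage points, and was -3.53 without dermal A.

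Of the skin members 0 were found in skin libraries of more than 1 set, but sharing across sets was rare in general, at 14 of 1464 combinations (0.956%) of the other skin clonotypes. The 56 skin members encoded 49 distinct combinations of V, J and amino acid CDR3, and 0 of them were found in lymph node, beside 129 of 1464 (8.81%) such combinations of the other skin clonotypes. Of the 48 CDR3s taken without regard to V and J, 0 were in lymph node, beside 18.0% of the 1442 others. By the rule, a combination shared with lymph node would be a member there too, so only its 42 members could match. The same holds for the CDR3s, apart from TRBV1 clonotypes. The others could match any of the further lymph node clonotypes, so their shares are not a like comparison. Found in more than 1 library were 4 combinations, all within the set of the CD103 sorts and epidermal B. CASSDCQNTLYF (TRBV13-3, TRBJ2-4) had 662 reads in epidermal B and 1 read in each CD103 sort, and a second nucleotide version of it had 1 read in epidermal B. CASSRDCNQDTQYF (TRBV17, TRBJ2-5) had 128 reads in epidermal B and 1 in CD103+. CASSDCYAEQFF (TRBV13-3, TRBJ2-1) had 77 and 1 in the same libraries, and the TRBV13-3 clonotype of 16 residues had 348 and 2. In all 4 the reads outside epidermal B were 1 or 2 per library, and whether they were cells of the sort or carry-over between libraries of the set was not tested.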

How the data were processed

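The authors deposited 1 table per library with, per the file headers, a read count per clonotype, the fraction of the library's reads, the V, D and J names, the CDR3 and the positions of the segment borders in the CDR3. The counts were used as deposited. The fraction equals the count divided by the library total, and other values were computed from the counts. The aligner, clonotype caller, error correction and segment reference are not given in the sources used here. A clonotype was a V, a J and a nucleotide CDR3. Complete CDR3s begin with C and end with F, and TRBV1 was left out. Depth per library and intervals are given with the shares.

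Inserted bases came from the deposited border positions and, separately, from matching each CDR3 to GENCODE release M21 transcripts (GRCm38), with D matches of at least 4 bases. A reference V and J existed for 26481 of the 26492 clonotypes. The 3 tests were exact permutation tests over libraries with Benjamini-Hochberg adjustment, so p-values measure the spread between pools. In the clone size test the pools also differed in tissue and sort. The members, lists and tests were chosen with earlier results of these data known. Named clonotypes were the 3 with most reads per library and those in 2 or more libraries; named segments were the 5 with most members and those with the highest and lowest lymph node member share among segments with at least 200 clonotypes there. Others named were chosen after their values were seen. The Tcrg library was not used. Functions were tested on simulated data. Python 3.11.15, pandas 2.3.3, NumPy 2.4.6, SciPy 1.17.1 and matplotlib 3.10.9 were used.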

Additional observations from a re-analysis of the deposited data

How the results depend on the processing

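The ratio of the median skin share to the lymph node share stayed between 17.9 and 29.8 in 17 of 18 alternatives, all chosen after the shares were seen, and between 17.9 and 24.4 when each skin library was left out. It was 8.50 when any cysteine after residue 1 counted, a wider window in which lymph node had 0.580% and WT dermis 1.67% of clonotypes. By reads the order in this window was the other way, with 0.455% in lymph node and 0.00629% in WT dermis. With at least 10 reads per clonotype the ratio could not be formed, since lymph node then had no member. The epidermal minus dermal difference in clonotype share (-0.87 percentage points) turned positive with at least 10 reads per clonotype (0.730), with the cysteine at most 2 residues from the centre (0.083), without clonotypes within 2 mismatches of a larger one (0.554, added after seeing the data) and with both CD103 sorts in the dermal group (0.381). Leaving out each library in turn gave -3.53 to 1.79. The difference in read share (-1.003) turned to 0.243 with the cysteine at most 2 residues from the centre, and ranged from -2.19 to 0.186 when libraries were left out. With replicate letter as a replicate block the differences were -1.685 for clonotypes and -1.35 for reads, and with library set as the block -1.12 and -1.58. The letters A and B share only a name across tissues, and the 2 lettered pairs allow no check of pairing. The clone size difference kept its sign in 16 of 16 alternatives (-1.18 to -0.05). Each library needed 5 members, so leaving out clonotypes near a larger one left 5 libraries at 1 mismatch and 4 at 2 mismatches. At 2 mismatches dermal A, dermal B and epidermal A fell out. These alternatives therefore cannot show whether the sign holds in those libraries without copies. In 4 of the 16, 5 or fewer libraries were left and the test could not have passed 0.05, and in the other 12 it did not. The cause of the turns was not tested. Low reads per clonotype limit lymph node, where 47 clonotypes had at least 10 reads. In dermal B and epidermal C the limit is the number of clonotypes, 65 and 69, of which each member is over 1%.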
